A study of Canis lupus familiaris with 186 samples.

Results

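Osteosarcoma is a malignant bone tumor of dogs and humans that spreads mainly to the lungs, and most dogs relapse with metastases after the limb is removed, even with chemotherapy. GS-1 is a gene signature that splits canine tumors into a favorable prognosis (FP) and a poor prognosis (PP) cluster. Here, dogs that relapsed early were compared with dogs that relapsed late or not at all within the GS-1 FP cluster, to show which genes differed among tumors that share the favorable cluster. Of the 186 dogs with mRNA sequencing, 58 were in the GS-1 FP cluster, and 32 of these had an early or a late disease-free interval (DFI). Early relapse was a DFI event before 150 days, which applied to 13 dogs, and late was a DFI of 300 days or more with or without an event, which applied to 19 dogs. The other 26 FP dogs, of which 7 were censored before 150 days and 19 had a DFI between the limits, entered neither group.

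All tumors were treatment-naive appendicular osteosarcomas of pet dogs without visible metastases, sampled as a bulk primary tumor before the amputation and carboplatin of the trials COTC021 and COTC022, a part of which added rapamycin. The labels give each dog's trial but no treatment arm, breed or age. The series holds 93 dogs of each trial, and per the study each treatment arm also had 93 dogs. Whether trial and arm coincide is not given in the sources used here. DFI, its event and the cluster came from the study's per-dog outcome table, not from the sample labels. The 13 early dogs had a DFI of 55 to 138 days, with a median of 84 days, and all had an event. The 19 late dogs had a DFI of 321 to 1092 days, with a median of 666 days, of which 10 had an event and 9 were censored. Just outside the limits, the shortest DFI with an event was 158 days and the longest DFI of any other FP dog was 297 days. The mean of the GS-1 genes, which defined the cluster and is given as a description only, had a median of 0.82 (range 0.28 to 2.29) in early and 0.81 (range 0.15 to 3.47) in late dogs, on a scale of mean z-scores. By the second signature, GS-2, 10 of 13 early and 17 of 19 late dogs were also in its FP cluster.

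The libraries were not balanced between the relapse groups. In the count table, the parts of some library names are separated by a doubled low line (double-separator) and of others by a single one (single-separator), and what this marks is not given in the sources used here. The 13 early dogs were 8 single-separator COTC022, 2 single-separator COTC021, 2 double-separator COTC021 and 1 double-separator COTC022 libraries. The 19 late dogs were 9 single-separator COTC021, 8 double-separator COTC022 and 2 single-separator COTC022 libraries. Relapse group differed across the 4 combinations (Fisher's exact test, two-sided, p = 0.00129), although it did not by trial alone (Fisher's exact test, p = 0.471) or by name style alone (Fisher's exact test, p = 0.45). A term for trial and a term for style therefore leave part of this imbalance in place, so values with a term for each combination, a fit chosen after the data were seen, are given below for most lists beside those with these 2 terms. The total count per library was 6587634 to 20851591 in early and 6715161 to 21266853 in late dogs. The means did not differ beyond their spread (permutation test, two-sided, p = 0.529). Depth did differ by name style, which that test did not take into account. Double-separator libraries held 20287900 to 20851600 counts in COTC021 and 15803900 to 21266900 in COTC022. Single-separator libraries held 7038010 to 14762700 counts in COTC021 and 6587630 to 12480300 in COTC022.

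Markers of the labelled tissue were checked before the comparison. RUNX2, the master regulator of bone-forming cells, reached 10 counts in 32 of 32 libraries, at 40.7 to 476 CPM (a gene's counts relative to the library total, scaled alike in all libraries), and SP7, a second osteoblast factor, did so in 28. One late library, dog 1709 of COTC022, stood apart. It had the lowest COL1A1 (328 CPM, next lowest 3020 CPM), ALPL (0.696 CPM) and IBSP (0.253 CPM) of the 32 libraries, which encode the bone collagen, alkaline phosphatase and bone sialoprotein. Its 16 T cell markers summed to 4854 CPM against 1197 CPM in the next library. Values without this library are given below for some of the lists, and lists without such values also moved.

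No gene passed the test between early and late relapse. Of 13231 genes tested with limma voom, 0 had an adjusted p under 0.05 (0% called), and the lowest adjusted p was 0.198. At an unadjusted p under 0.05, 734 genes (5.55%) were higher in early and 543 (4.1%) were lower. edgeR called 0 genes, with 1490 at an unadjusted p under 0.05, whereas DESeq2 called 64 (0.484%), 27 higher and 37 lower in early dogs. With a term for each combination of trial and style, limma voom called 2 genes (0.0151%), EIF4G1 and PRRT4, and DESeq2 called 88, 71 of them higher in early dogs. In that fit 749 genes (5.66%) were higher and 513 (3.88%) lower in early dogs at an unadjusted p under 0.05. Since the tumors are bulk samples, fewer cells of a type and less RNA per cell cannot be told apart in any of these values.

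EIF4G1 encodes the scaffold of the cap-binding complex that brings mRNA to the ribosome. It lies on chromosome 34 (17364627 to 17384317, build UU_Cfam_GSD_1.0). Its level was 358, 529 and 841 CPM at the lowest, median and highest of the 13 early dogs, and 216, 375 and 637 CPM in the 19 late dogs. The groups overlapped, but 11 of 13 early dogs lay above the late median, and the other 26 FP dogs had a median of 433 CPM, between both groups. The fitted difference was a log2 fold change of 0.62 ± 0.13 (SE), a 1.54-fold higher level in early dogs, with an adjusted p of 0.198 in limma voom, 0.239 in edgeR and 0.00663 in DESeq2. With a term for each combination it was 0.91 ± 0.15 (SE), with a limma voom adjusted p of 0.0126. Early dogs were higher in each combination that held both groups. EIF4G1 was chosen for its difference over these same dogs, so nothing is read from that agreement. Among single-separator COTC021 libraries the early median was 653 CPM against 353 CPM, among double-separator COTC022 libraries the single early dog had 841 CPM against a median of 424 CPM, and among single-separator COTC022 libraries the medians were 444 CPM and 227 CPM.

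PRRT4, a gene for a proline-rich transmembrane protein of little-known function, was the other call of that fit. It had 1.52, 3.25 and 37.4 CPM (lowest, median, highest) in early dogs and 0.0633, 1.28 and 3.86 CPM in late dogs, and all 13 early dogs were above the late median. Its log2 fold change was 1.73 ± 0.43 (SE) with terms for trial and style (adjusted p of 0.291 in limma voom and 0.00315 in DESeq2), and 2.80 ± 0.47 (SE) with a term for each combination (limma voom adjusted p = 0.0126). The 26 other FP dogs had a median of 3.1 CPM, close to that of the early dogs. Both calls rest on few libraries. Among 32 fits that each left out 1 dog, EIF4G1 passed in 29 and PRRT4 in 31. EIF4G1 reached an adjusted p of 0.125 without early dog 1908, 0.107 without late dog 0106 and 0.0646 without late dog 1023, and PRRT4 0.162 without early dog 2321.

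**Figure D1:**
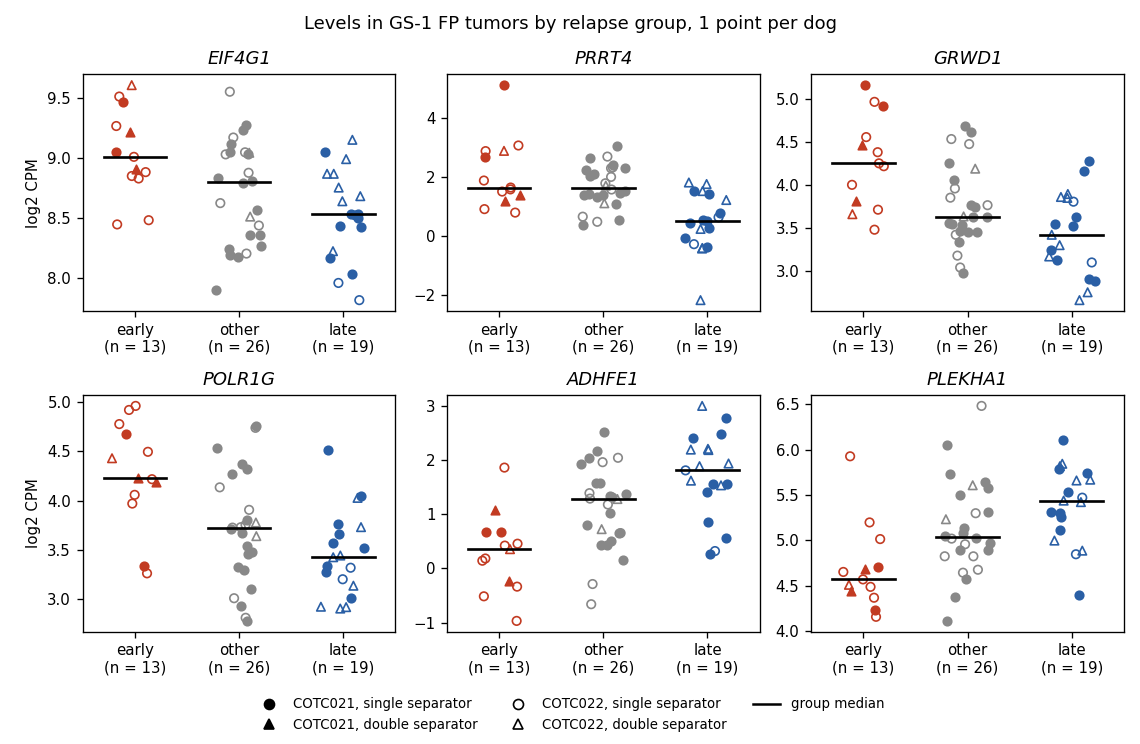
Levels (log2 CPM, TMM-normalized) of 6 genes with small p-values in the comparison, 1 point per FP dog, by relapse group. Black lines are group medians, filled points are COTC021 and open points COTC022, circles are single-separator and triangles double-separator libraries. The early and late groups overlap in every panel, and EIF4G1, GRWD1 and POLR1G have higher and ADHFE1 and PLEKHA1 lower medians in early dogs, with the other 26 dogs between them.

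The other 8 of the 10 genes listed as higher in early dogs did not pass either. POLR1G, a subunit of RNA polymerase I, which transcribes ribosomal RNA, had 9.04, 20.3 and 31.9 CPM (lowest, median, highest) in early and 5.87, 10.8 and 23.7 CPM in late dogs. Its log2 fold change was 0.83 ± 0.18 (SE), and 11 of 13 early dogs lay above the late median. GRWD1, a ribosome assembly factor, had 10.6, 20.1 and 38 CPM in early and 5.31, 10.2 and 19.5 CPM in late dogs. All 13 early dogs were above the late median of GRWD1, and its log2 fold change was also 0.83 ± 0.18 (SE). MYBBP1A, a nucleolar protein, had a median of 142 CPM in early and 82.5 CPM in late dogs (log2 fold change 0.91 ± 0.22, SE), again with 13 of 13 early dogs above the late median. METTL1, a tRNA methyltransferase, had 0.72 ± 0.18 (SE), and KTI12, needed for tRNA modification by Elongator, 0.65 ± 0.15 (SE). The adjusted p of these 5 genes was 0.198 to 0.291 in limma voom, and DESeq2 called each of them. With a term for each combination, DESeq2 called GRWD1 (adjusted p = 0.0255) and MYBBP1A (0.0199) but not POLR1G (0.0549), METTL1 (0.129) or KTI12 (0.282). MFSD2A, a transporter of lysolipids, had a median of 13 CPM in early and 5.56 CPM in late dogs (log2 fold change 1.52 ± 0.37, SE). WDR77, a partner of the arginine methyltransferase PRMT5, had 0.63 ± 0.14 (SE), and BCKDK, a kinase that restrains branched-chain amino acid breakdown, 0.51 ± 0.12 (SE), and all 13 early dogs lay above the late median for both.

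The 10 genes listed as lower in early dogs also missed the main threshold, with limma voom adjusted p-values of 0.198 to 0.318. ADHFE1, a mitochondrial enzyme related to alcohol dehydrogenases, had 0.318, 1.21 and 3.33 CPM in early and 1.04, 3.27 and 8.02 CPM in late dogs. For this gene, 12 of 13 early dogs lay below the late median. Its log2 fold change was -1.47 ± 0.31 (SE), with the smallest p of all genes with a symbol (adjusted p of 0.198 in limma voom and 0.00652 in DESeq2). In DESeq2 with a term for each combination, the adjusted p of ADHFE1 was 0.131. PLEKHA1, a phosphoinositide-binding adaptor, had a median of 24.4 CPM in early and 42.4 CPM in late dogs (log2 fold change -0.76 ± 0.17, SE). SMAD7, the inhibitory SMAD of TGF-beta signaling, had 6.25, 10.5 and 21.1 CPM in early and 5.96, 23.5 and 39.1 CPM in late dogs. All 13 early dogs lay below the late median of SMAD7 (log2 fold change -0.99 ± 0.25, SE). MPPE1, which remodels GPI anchors, had -0.89 ± 0.23 (SE), and RALGAPA2, which inactivates Ral GTPases, -0.68 ± 0.17 (SE). APOM, ZNF674, CXHXorf38, NAPB and PIP4K2C had log2 fold changes of -1.12 to -0.58. All 10 genes had the same sign within each trial, within each name style and with a term for each combination. They were chosen for their difference over these same dogs, so nothing is read from that agreement.

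In PP tumors, the same contrast gave a fold change nearer to 0 for each of these 20 genes, which were chosen for their difference in FP, so nothing is read from that gap. In the 58 early and 30 late PP dogs, GRWD1 had a log2 fold change of 0.01 ± 0.13 (SE), POLR1G 0.14 ± 0.13, BCKDK 0.00 ± 0.09, KTI12 0.01 ± 0.09 and EIF4G1 0.18 ± 0.09. SMAD7 had -0.25 ± 0.16 (SE) and ADHFE1 -0.42 ± 0.20 in PP. Across 13438 genes, 0 passed an adjusted p of 0.05 for the difference between the FP and PP contrasts in limma voom, 863 (6.42%) had an unadjusted p under 0.05, and the lowest adjusted p was 0.721. edgeR also called 0, with 1367 at an unadjusted p under 0.05. In PP itself limma voom called 0 genes, with 630 (4.69%) higher and 826 (6.15%) lower in early dogs at an unadjusted p under 0.05, and edgeR called 22. The genes with the smallest p for the difference were PLPP6, FHL3, KTI12, SLC38A5 and SMCHD1. PLPP6, a lipid phosphatase, had 0.48 ± 0.18 (SE) in FP and -0.45 ± 0.13 in PP, and FHL3, a LIM-domain protein of muscle and matrix signaling, 0.42 ± 0.17 in FP and -0.35 ± 0.11 in PP, with the FP values from the fit of FP dogs alone. The difference had a limma voom adjusted p of 0.721 for both.

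**Figure D2:**
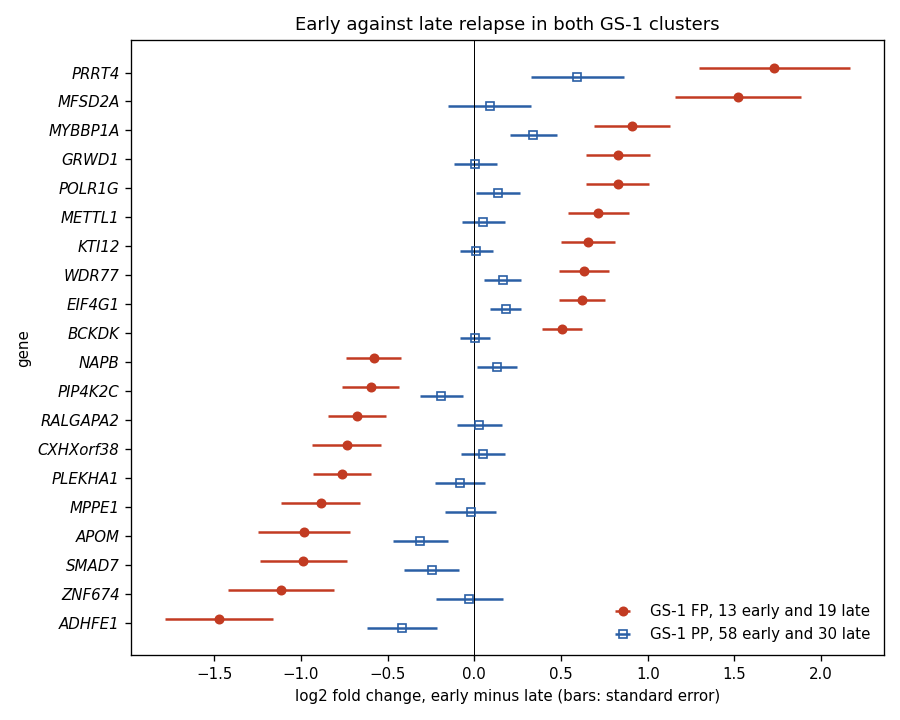
Log2 fold change of early against late relapse (horizontal axis, bars are standard errors) for the 20 genes with the smallest p in FP, 10 in each direction, in FP (filled circles) and PP (open squares). The genes were chosen on the FP values. GRWD1, BCKDK and KTI12 lie at 0.01, 0.00 and 0.01 in PP.

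Among the gene lists, proliferation genes were higher in early dogs for 22 of 24 members, at a median log2 fold change of 0.37 against -0.01 over all genes tested. Only MCM6, a subunit of the replicative helicase, had an unadjusted p under 0.05, and 0 passed the adjusted test. MCM6 had 98.8, 210 and 391 CPM in early and 89.7, 149 and 356 CPM in late dogs, with a log2 fold change of 0.46 ± 0.20 (SE). RRM2, a ribonucleotide reductase subunit, had 0.64 ± 0.33 (SE). With a term for each combination the median was 0.68, 23 of 24 members were higher and 6 had an unadjusted p under 0.05. Without dog 1709 the median was 0.29 and 21 members were higher. In PP the median was 0.27, with 24 of 24 members higher and 4 at an unadjusted p under 0.05. Whether FP and PP differ for this list was read gene by gene only, and 0 of 24 members had an unadjusted p under 0.05 for the difference.

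Lymphoid lists had negative medians whose size depended on the libraries. The T cell list had 1 of 13 tested members higher in early dogs (median log2 fold change -0.65), and the cytotoxic lymphocyte list 0 of 7, with a median of -0.61. None of these 20 genes had an unadjusted p under 0.05. CD3E, a chain of the T cell receptor complex, had 2.03, 11.8 and 42.1 CPM in early and 2.5, 12.2 and 880 CPM in late dogs, so the medians were close and the late group held the highest value. CCL5, a chemokine of cytotoxic lymphocytes, had a median of 20.7 CPM in early and 37.2 CPM in late dogs, with a log2 fold change of -1.26 ± 0.93 (SE). Within COTC021 and COTC022 the T cell median was 0.22 and -0.66, and without dog 1709 the medians of the T cell and cytotoxic lists were -0.36 and -0.23, and with a term for each combination they were -0.23 and -0.41. The summed T cell markers ranged from 34 to 263 CPM in early and from 18 to 4854 CPM in late dogs. The B cell and plasma cell list turned from a median of -0.39 (1 of 7 higher) to 0.51 (6 of 7 higher) with a term for each combination, and was -0.25 (3 of 7 higher) without dog 1709. JCHAIN, which joins secreted antibodies, was called by DESeq2 (log2 fold change -3.04, adjusted p = 0.0231) and had -1.12 ± 0.90 (SE) in limma voom and -0.31 ± 1.16 with a term for each combination. DESeq2 did not call JCHAIN with that term (adjusted p = 0.334). SDC1, which marks plasma cells and is also made by epithelium and stroma, was the only member of that list higher in early dogs, at 0.71 ± 0.34 (SE).

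Antigen presentation and interferon lists had negative medians, which turned positive for MHC class II and interferon-stimulated genes with a term for each combination. MHC class I antigen processing genes were higher in early dogs for 1 of 12 members, with a median of -0.47, which was -0.19 with a term for each combination. ERAP1, the peptide-trimming peptidase of the endoplasmic reticulum, was its only member with an unadjusted p under 0.05 (log2 fold change -0.55 ± 0.21, SE). MHC class II genes had a median of -0.18 with 1 of 10 higher, which turned to 0.24 with 10 of 10 higher with a term for each combination and was -0.057 without dog 1709. Interferon-stimulated genes had a median of -0.14 in FP, with 9 of 22 higher and 0 at an unadjusted p under 0.05, and 0.23 with a term for each combination. Without dog 1709 it was -0.076. In PP the same list had a median of -0.74, with 0 of 21 higher and 14 lower in early dogs at an unadjusted p under 0.05. For the difference between FP and PP, 4 of 21 had an unadjusted p under 0.05, against 6.42% of all genes, and none an adjusted p under 0.05. The 4 were MX2, OAS1, IFIT3 and IRF7, interferon-induced antiviral genes and an interferon regulator.

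Macrophage genes were higher for 10 of 14 members, with a median of 0.19 in FP and 0.30 with a term for each combination. That median was -0.29 within COTC021 and 0.48 within COTC022, and -0.44 within single-separator and 2.00 within double-separator libraries. MARCO, a scavenger receptor of macrophages, had 0.474, 15.5 and 269 CPM in early and 0, 3.08 and 95.8 CPM in late dogs. Its log2 fold change was 1.89 ± 1.01 (SE), but -1.04 within COTC021 and 3.44 within COTC022. Neutrophil genes were lower in early dogs for 7 of 7 members, with a median of -0.88. With a term for each combination the neutrophil median was -1.67, and 2 of 7 members were higher. The neutrophil median was 0.94 within COTC021 and -2.10 within COTC022, and -3.66 within single-separator and 2.53 within double-separator libraries. S100A12, a calcium-binding alarm protein of granulocytes, had a log2 fold change of -1.25 ± 0.91 (SE), which was -4.26 within single-separator and 3.14 within double-separator libraries. The summed neutrophil markers had a median of 38 CPM in early and 110 CPM in late dogs, and the ranges of 10 to 253 CPM and 8 to 1426 CPM overlapped. CD83, a surface protein of mature dendritic cells, had a median of 23.8 CPM in early and 45 CPM in late dogs (log2 fold change -0.84 ± 0.31, SE, unadjusted p = 0.0104 and adjusted p = 0.389 in limma voom). Mast cell (2 of 3 higher, median 0.04), lymphoid chemokine (2 of 6, median -0.12), dendritic cell (2 of 8, median -0.20) and immune checkpoint genes (4 of 10, median -0.37) had at most 1 member with an unadjusted p under 0.05. The medians of these 4 lists in the fit with a term for each combination were -0.35 (0 of 3 higher), 0.40 (4 of 6), -0.044 (4 of 8) and -0.032 (5 of 10).

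**Figure D3:**
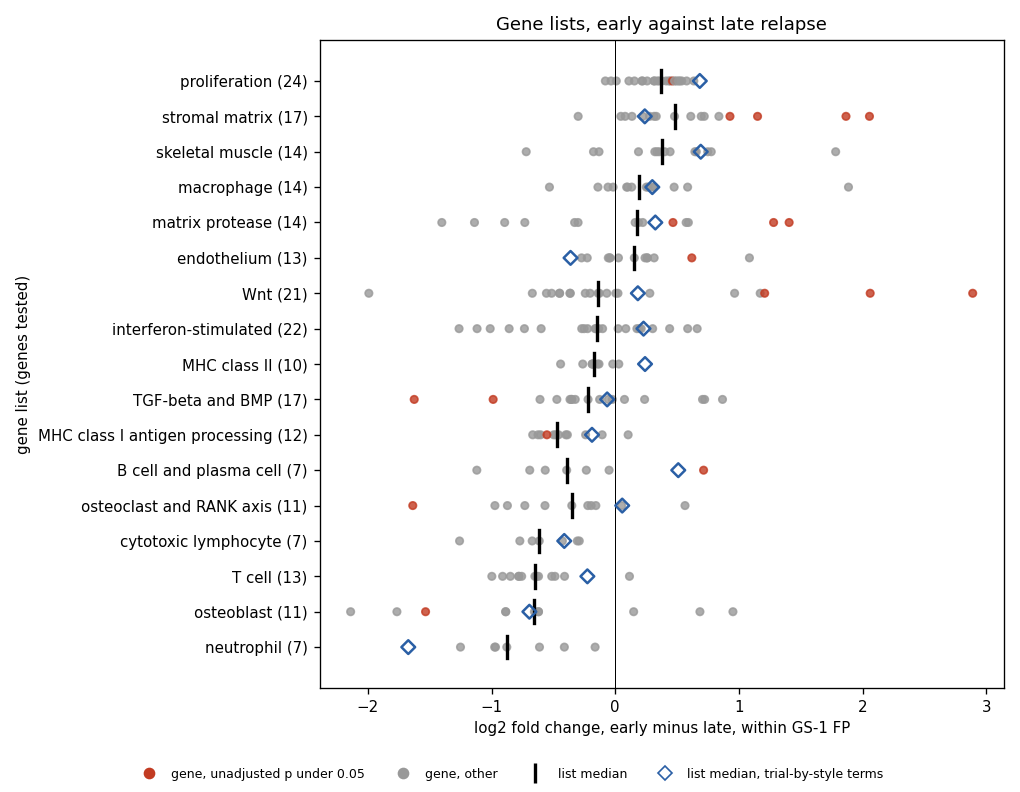
Log2 fold change of early against late relapse within FP (horizontal axis) for the tested members of 17 gene lists, with their number in parentheses. Each point is a gene, red where the unadjusted p was under 0.05, black bars are list medians and blue diamonds the medians with a term for each combination of trial and name style. The proliferation, stromal matrix, skeletal muscle, macrophage and matrix protease medians lie above 0 in both fits. The B cell, MHC class II, interferon, Wnt, osteoclast and endothelium medians change sign between them.

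Bone genes spread widely. The osteoblast list had 3 of 11 members higher in early dogs and a median of -0.65, which was -0.95 without dog 1709, the library with the lowest bone markers, and -0.69 with a term for each combination. Members lower at an unadjusted p under 0.05 numbered 1 with dog 1709 and 4 without it, where 680 of all 13231 genes were lower. In PP the osteoblast median was 0.20, with 9 of 12 members higher. PHEX, an endopeptidase of osteoblasts and osteocytes, had 1.15, 9.35 and 47.2 CPM in early and 2.28, 22.5 and 417 CPM in late dogs, with a log2 fold change of -1.53 ± 0.74 (SE). SPP1, the bone matrix protein osteopontin, had -0.89 ± 0.45 (SE). TNFSF11 encodes RANKL, the signal by which bone-forming cells drive osteoclasts. It had 0.739, 19.2 and 54.8 CPM in early and 1.27, 55.6 and 170 CPM in late dogs, and all 13 early dogs lay below the late median. Its log2 fold change was -1.64 ± 0.65 (SE), with an unadjusted p of 0.0166 and an adjusted p of 0.423 in limma voom. In PP, TNFSF11 had -0.18 ± 0.28 (SE). The osteoclast and RANK list as a whole had 2 of 11 higher, with a median of -0.35 that became 0.06 with a term for each combination. Cartilage genes were evenly split (6 of 12 higher), with a median of -0.0084, which was -0.23 without dog 1709 and 0.16 with a term for each combination. COL11A2, a chain of cartilage collagen, had a log2 fold change of -2.19 ± 0.75 (SE), with an adjusted p of 0.366 in limma voom and 0.00652 in DESeq2. In DESeq2 with a term for each combination, the adjusted p of COL11A2 was 0.324.

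Stromal matrix genes were higher in early dogs for 16 of 17 members, with a median of 0.48, and 4 (COL3A1, COL6A2, POSTN and THY1) had an unadjusted p under 0.05, against 5.55% of all genes higher in early dogs. POSTN, a matricellular protein of fibroblasts and periosteum, had 24.5, 435 and 1531 CPM in early and 1.63, 68.6 and 4591 CPM in late dogs, so that 11 of 13 early dogs were above the late median but the highest level was in a late dog. Its log2 fold change was 2.06 ± 0.96 (SE) with terms for trial and style and 0.96 ± 1.22 with a term for each combination. In the latter fit 10 of 17 members were higher, the median was 0.24 and 0 had an unadjusted p under 0.05, and without dog 1709 14 of 17 were higher with a median of 0.33. Matrix protease genes had 8 of 14 higher, with a median of 0.17 (0.32 with a term for each combination, and 0.056 without dog 1709). ADAMTS4, an aggrecan-cleaving protease, had a median of 58.3 CPM in early and 25.8 CPM in late dogs (log2 fold change 1.28 ± 0.40, SE), which was 0.75 ± 0.50 (SE) with a term for each combination. ENG, an endothelial TGF-beta co-receptor, had 103, 180 and 276 CPM in early and 50.7, 114 and 286 CPM in late dogs (0.62 ± 0.22, SE), whereas the endothelium list turned from a median of 0.15 to -0.36 with a term for each combination.

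Skeletal muscle genes, which mark tissue around the bone, were higher in early dogs for 11 of 14 members, with a median of 0.38 (0.69 with a term for each combination) and none at an unadjusted p under 0.05. Their sum had a median of 115 CPM in early and 106 CPM in late dogs, with a highest level of 13841 CPM in early and 1818 CPM in late dogs. Adipocyte genes had 1 of 6 higher, with a median of -0.40 (-0.90 with a term for each combination). None of the 10 erythroid genes passed the low-count filter, and their sum was at most 13 CPM in early and 62 CPM in late dogs. The part of muscle, fat and lymphoid tissue in the differences above was not tested.

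Signaling and treatment-related lists differed in their medians. In the Wnt list 8 of 21 members were higher, with a median of -0.14 that became 0.18 with a term for each combination, but 3 had an unadjusted p under 0.05 and all were higher in early dogs. They were WNT2, a ligand, FZD2, a receptor, and DKK3, a secreted protein of the Dickkopf family. With a term for each combination 2 members were higher at that threshold. Over all genes, 5.55% were higher and 4.1% lower in early dogs at that threshold with terms for trial and style, which is the background for the lists below. DKK3 had 4.27, 61.7 and 232 CPM in early and 1.9, 11 and 159 CPM in late dogs, with 12 of 13 early dogs above the late median and a log2 fold change of 2.06 ± 0.60 (SE). In PP, DKK3 had -0.42 ± 0.38 (SE), and the difference from FP had an unadjusted p of 0.00139 and an adjusted p of 0.721 in limma voom. In the TGF-beta and BMP list 5 of 17 were higher (median -0.22, and -0.065 with a term for each combination), and SMAD7 and LTBP2, a matrix protein related to the TGF-beta binding proteins, were lower with an unadjusted p under 0.05 (LTBP2 -1.63 ± 0.70, SE). Among platinum response genes ABCB1, the multidrug efflux pump, had -1.39 ± 0.65 (SE) and ATP7A, a copper exporter, -0.44 ± 0.20 (SE), and 10 of 20 members were higher (median 0.02). The mTOR list also had 10 of 20 higher (median 0.02), with AKT1 (0.43 ± 0.18, SE) and EIF4EBP1, a repressor of cap-dependent translation (0.37 ± 0.17, SE), at an unadjusted p under 0.05. EIF4EBP1 had 0.09 ± 0.21 (SE) with a term for each combination.

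Of the genes altered in osteosarcoma, the cell cycle brake RB1 had 21.7, 38.9 and 65.1 CPM in early and 32.3, 49 and 82.1 CPM in late dogs (log2 fold change -0.46 ± 0.16, SE), and the kinase CDK4, which acts on RB1, 171, 289 and 455 CPM in early and 118, 191 and 392 CPM in late dogs (0.44 ± 0.17, SE). Both had an unadjusted p under 0.05 and adjusted p-values of 0.358 and 0.413 in limma voom. With a term for each combination they were -0.58 ± 0.21 (SE) and 0.31 ± 0.22 (SE). Over the whole list of such genes 5 of 13 were higher (median -0.06, and 0.12 with a term for each combination), and DMD (0.88), the dystrophin gene, and ATRX (-0.40), a chromatin remodeler, also had an unadjusted p under 0.05. Of the metastasis-linked genes 8 of 14 were higher (median 0.10, and 0.01 with a term for each combination), and ANXA2, a membrane-binding annexin, had 759, 1200.4 and 1710.2 CPM in early and 385, 720 and 1774 CPM in late dogs (0.58 ± 0.22, SE), with 13 of 13 early dogs above the late median. Hypoxia and glycolysis (6 of 17 higher, median -0.04), oxidative phosphorylation (12 of 20, median 0.10), cytosolic ribosome (10 of 25, median -0.05) and immediate early and stress genes (10 of 15, median 0.11) had no member with an unadjusted p under 0.05. Their medians were 0.0048, 0.067, -0.16 and -0.062 with a term for each combination. Of the genes named above from the lists, ERAP1, CD83, PHEX, TNFSF11, COL11A2, ANXA2, LTBP2, ABCB1, ATP7A, SDC1, ADAMTS4, POSTN, COL3A1, COL6A2, THY1, WNT2, DMD, ATRX, CDK4 and EIF4EBP1 had an unadjusted p of 0.05 or more in that fit.

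Genes with small p-values higher in early dogs were unevenly spread over the chromosomes, a description made after the values were seen. On chromosome 34, 25 of 129 tested genes (19.4%) had an unadjusted p under 0.05 and were higher in early dogs, against 5.55% of all genes. The shares were 13.7% (93 of 678) on chromosome 5 and 13.6% (45 of 332) on chromosome 15, and 0 of 127 on chromosome 35. With a term for each combination they were 15.5%, 7.82% and 12% on chromosomes 34, 5 and 15, against 5.66% of all genes, and chromosome 9 had 15.1%. EIF4G1, PSMD2, a proteasome subunit, and POLR2H, a subunit shared by RNA polymerases, are neighbors on chromosome 34. Between EIF2B5 and POLR2H (17209816 to 17414320) lie 11 tested genes, of which 10 were higher in early dogs and 9 had an unadjusted p under 0.05 (median log2 fold change 0.48). The stretch was drawn around genes named for their small p-values, so its counts and levels in FP follow in part from that choice. The 2 genes past neither threshold were FAM131A (-0.15) and CLCN2 (0.07). In PP, 11 of 11 were higher, with a median of 0.20. The mean log2 CPM of the 11 genes was 5.40, 5.88 and 6.64 (lowest, median, highest) in early dogs, 4.79, 5.44 and 6.08 in late dogs and 5.03, 5.59 and 6.54 in the other 26 FP dogs. Of 13 early dogs, 12 lay above the late median and 4 above the highest late dog. Across the 58 FP dogs, the median pairwise Pearson correlation of the 11 genes was 0.50 (lowest -0.085, highest 0.79). Over the 128 PP dogs the median was 0.49. The points share library depth and normalization, and no other set of genes is given for comparison. DNA copy number was not measured here.

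**Figure D4:**
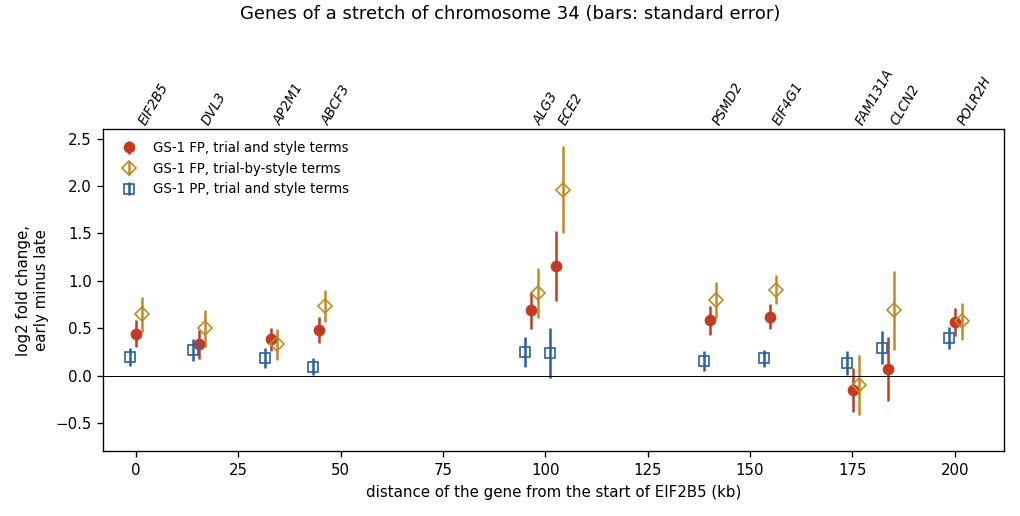
Log2 fold change of early against late relapse (vertical axis, bars are standard errors) of 11 neighboring genes on chromosome 34, by distance in kb from the start of EIF2B5. Filled circles are FP with terms for trial and style, open diamonds FP with a term for each combination and open squares PP. The stretch was drawn around genes named for their small p-values. In FP, 10 of 11 circles lie above 0, and in PP all 11 squares do.

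DFI was also modelled across all 58 FP dogs, with the 26 dogs outside the relapse groups included, by a Cox regression per SD of each gene's log2 CPM with terms for trial and style. It shares 32 dogs with the comparison above and is not independent of it. No gene of 13378 passed an adjusted p of 0.05 in the likelihood-ratio test across all genes, 722 (5.4%) had a hazard ratio above 1 and 607 (4.54%) below 1 at an unadjusted p under 0.05, and the lowest adjusted p was 0.139. That lowest value belonged to MRI1, an enzyme of methionine salvage, with a hazard ratio of 2.33 (95% interval 1.54 to 3.55). MRI1 had 4.26, 7.97 and 21.9 CPM in early and 1.12, 4.71 and 12.1 CPM in late dogs. The next genes were POLR2H (hazard ratio 2.49, 1.57 to 3.95), PRRT4 (2.26, 1.48 to 3.44), CDC37, a kinase co-chaperone (2.06, 1.45 to 2.93), and PSMD2 (2.21, 1.48 to 3.30), with adjusted p-values of 0.197 to 0.202 in the Cox models. EIF4G1 had a hazard ratio of 1.99 (1.33 to 2.97).

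Proliferation genes had hazard ratios above 1 for 24 of 24 members, with a median of 1.40, where 47.5% of all genes were above 1. Of these members, 13 had an unadjusted p under 0.05 against 5.4% of all genes, although 0 passed the adjusted test. E2F1, a transcription factor of the G1 to S transition, had a hazard ratio of 1.603 (1.17 to 2.19), MCM6 1.58 (1.17 to 2.12) and RRM2 1.55 (1.08 to 2.23). With separate baseline hazards for each combination of trial and style, the median was 1.36 and 10 members had an unadjusted p under 0.05. MKI67, the Ki-67 antigen, had a hazard ratio of 1.23 (0.88 to 1.71) and was not past the unadjusted threshold. Ratios above 1 were not particular to proliferation. They were found for 33 of 37 proteasome subunits (median 1.39, 18 with an unadjusted p under 0.05) and 14 of 14 skeletal muscle genes (median 1.16, 0). By contrast, T cell genes had a median hazard ratio of 0.98, with 5 of 13 above 1, and cytotoxic lymphocyte genes 1.03, with 5 of 8 above 1. Neither of these lymphoid lists had a member with an unadjusted p under 0.05. TNFSF11 had a hazard ratio of 0.66 (0.48 to 0.90), SPP1 0.64 (0.45 to 0.93) and RB1 0.60 (0.40 to 0.88).

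**Figure D5:**
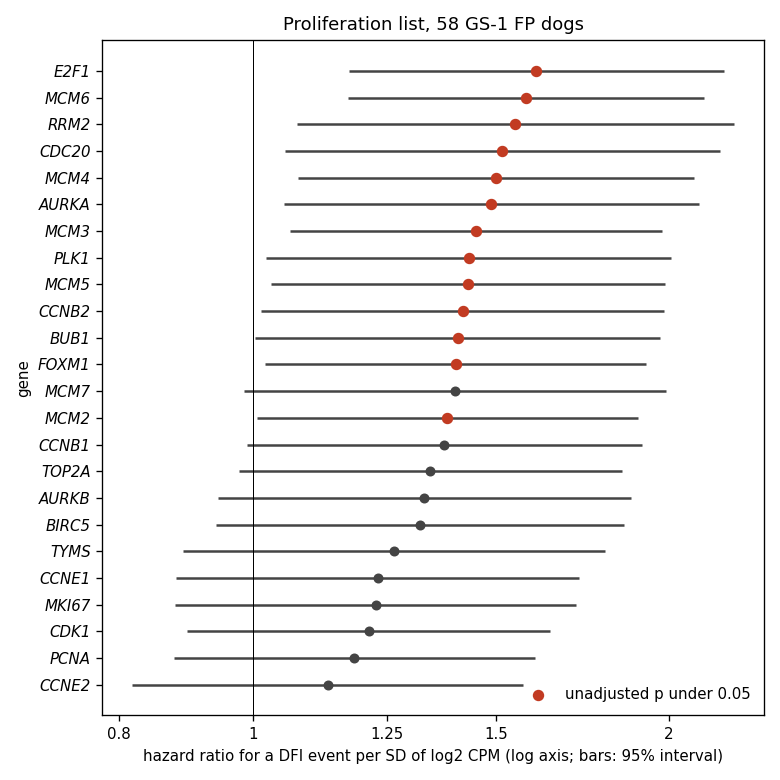
Hazard ratio for a DFI event per SD of log2 CPM (horizontal log axis, bars are 95% intervals) for the 24 proliferation genes in 58 FP dogs, with red points where the unadjusted p was under 0.05. All 24 ratios lie above 1, from CCNE2 at 1.13 to E2F1 at 1.603, and 13 are red.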

How the data were processed

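Bulk mRNA sequencing of 186 canine primary osteosarcomas was used, and 32 GS-1 FP dogs formed the comparison. Per the submitters' processing notes and the study's methods, bcl2fastq and cutadapt were run before STAR 2.7.0f and RSEM 1.3.1, and the authors deposited expected counts per gene, not normalized, for 37952 genes, quantified on the GSD_1.0 assembly per the study's methods. Of 198 columns, 12 that matched no listed sample were not used. The expected counts (3.07% not whole) were rounded. CPM scale a gene's counts to the library total. The 32 libraries held 6587634 to 21266853 counts.

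GS-1 clusters, DFI and events came from the study's per-dog outcome table, joined by the dog number. Low genes were removed by filterByExpr of edgeR 4.0.16 without groups (a minimum count of 10, with large.n at 5 and a minimum proportion of 0.5). After TMM scaling, limma 3.58.1 (voom, R 4.3.3) compared early with late dogs, trial and name style being covariates (Benjamini-Hochberg adjusted p under 0.05). PP and the difference came from 1 fit of 4 groups. DFI was modelled with survival 3.8.3. edgeR's quasi-likelihood test and DESeq2 1.42.0 (513 adjusted p-values not given) were alternatives. The early-late fits with terms for trial and style, the fit of 4 groups and the Cox regression with those terms were tested on simulated data. The fits with a term or baseline hazard for each combination were not. Figures used Python 3.11.15 and matplotlib 3.10.9. Each dog gave 1 sample to the fits.

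Named genes were, in each direction, the 10 with the smallest p and a symbol (since fewer than 10 passed), the 2 smallest p of each gene list, and the 5 smallest p of the FP-PP difference and of the Cox models, of which 2 are not reported here. Other genes named were chosen after their values were seen: CD3E, WNT2, COL3A1, COL6A2, E2F1, MKI67, CCNE2, DMD, ATRX, MX2, OAS1, IFIT3, IRF7, tissue markers and those of chromosome 34. Members and lists were chosen with earlier results of these data known. Symbols and coordinates were taken from RefSeq for UU_Cfam_GSD_1.0 (37952 of 37952 matched), and no sequences were used here.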

Additional observations from a re-analysis of the deposited data

How the results depend on the processing

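Limits: the 2 relapse groups hold 13 and 19 dogs, the median standard error of a log2 fold change was 0.21, and relapse group was unevenly spread over trial and name style, so neither can be fully told apart from it. No paired analysis was possible because each dog gave 1 library. The count of called genes was 0 with limma voom and with each of 32 fits that left out 1 dog (0 to 0), 64 with DESeq2, 4 with limits set further apart (POLR1G, PLEKHA1, BCKDK and NIFK), 1 within single-separator and 4 within double-separator libraries. Among alternatives chosen after the data were seen, it was 2 with a term for each combination (20 without early dog 0614, 4 without late dog 1002, and 1 without early dog 1908 or late dog 0106), 88 with that term in DESeq2, 2 without the combination that held early dogs only, and 54 in DESeq2 without dog 1709. In PP, edgeR called 22, and the Cox models without covariates called 1. The cause of these moves was not tested.

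Of 87 named genes, 56 kept their direction under every alternative. The log2 fold changes that turned are given by setting. DESeq2 gave CXCL13 0.66 and MYH2 -1.08, and edgeR gave MYH2 -0.85. Leaving out 1 dog moved CXCL13 between -0.70 and 0.66, MS4A2 between -0.037 and 1.23 and MYH2 between -0.26 and 2.17. In dogs that were FP by both signatures DES was -0.29. Within COTC021, CD6 was 0.00945, CXCL13 1.70, MARCO -1.04, S100A12 0.94, DLA-DOB 0.46, DES -0.15, EIF4EBP1 -0.044 and HMOX1 -0.74. Within COTC022, CXCL13 was 0.18, XCR1 0.034, MS4A2 -0.36, DLA-DQA1 0.70, ERAP1 0.24, TAPBP 0.12, IRF1 0.12, POSTN -0.27, ATP7A 0.18, ABCB1 0.74 and VIM -0.027. Within double-separator libraries, CD68 was 0.29, S100A12 3.14, DLA-DQA1 0.78, ERAP1 0.14, CXCL10 0.39, CD274 0.50, SPP1 1.59, ATP6V0D2 0.11, THY1 -0.62, POSTN -1.51, DES -0.46, ATP7A 0.28, ABCB1 2.72, AKT1 -0.56, CDK4 -0.22, VIM -0.016, FZD2 -0.58, FOSB -0.93, MRI1 -0.093 and CDC37 -0.034. Within single-separator libraries, CXCL13 was 1.58, MARCO -0.83, XCR1 0.030, MS4A2 -0.94, DLA-DOB 0.24, DLA-DQA1 0.092, IRF1 0.0062, EIF4EBP1 -0.12 and HMOX1 -0.59. With a term for each combination, CXCL13 was 0.95, MS4A2 -0.35, DLA-DOB 0.066, DLA-DQA1 0.24 and CXCL10 0.035.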

Other observations

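Gene families were counted by symbol after the values above had been seen, so the counts are descriptions. Among 17 cytosolic aminoacyl-tRNA synthetases, which charge tRNA with amino acids, 15 were higher in early dogs, at a median log2 fold change of 0.28, and 8 had an unadjusted p under 0.05. Of 8 NOP nucleolar proteins 7 were higher (median 0.42, 5 with an unadjusted p under 0.05), of 10 UTP genes of the small-subunit processome 9 (median 0.22, 3) and of 8 RNA polymerase I subunits 6 (median 0.33, 3). All 8 subunits of the chaperonin CCT, which folds actin and tubulin, were higher (median 0.32, 2). Of 37 proteasome subunits 32 were higher (median 0.22, 6), and of 50 EIF translation initiation factors 38 (median 0.13, 10). Of 229 ZNF zinc finger genes 66 were higher, with a median of -0.10, and 19 were lower with an unadjusted p under 0.05. Of 13 RNA polymerase II subunits 10 were higher (median 0.16, 1 higher with an unadjusted p under 0.05), of 24 integrin subunits 11 (median -0.02, 1) and of 29 collagen chains 20 (median 0.34, 2). Over all genes the median was -0.01 and 48.4% were higher in early dogs. At an unadjusted p under 0.05, 5.55% of all genes were higher and 4.1% lower. The medians with a term for each combination were 0.44 for the synthetases (7 higher with an unadjusted p under 0.05), 0.47 for NOP (4), 0.30 for UTP (5), 0.34 for RNA polymerase I (3), 0.39 for CCT (1), 0.19 for the proteasome (6) and 0.14 for EIF (4, with 34 of 50 higher), and 11 ZNF genes were lower. For RNA polymerase II, integrins and collagens these medians were 0.0059 (2), 0.12 (0) and 0.24 (0). The cytosolic ribosome list had 10 of 25 members higher. No gene of these families passed the adjusted limma voom test with terms for trial and style, and EIF4G1 passed it with a term for each combination.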
